A study of Mus musculus with 8 samples.

Results

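The striated muscle microRNAs examined here are 7 mature products of the miR-1, miR-133, miR-206, miR-499 and miR-208 genes, namely mmu-miR-1a-3p, mmu-miR-133a-3p, mmu-miR-133b-3p, mmu-miR-206-3p, mmu-miR-499-5p, mmu-miR-208a-3p and mmu-miR-208b-3p, written below without the species prefix. They were chosen by name from the 1915 mature miRNA names listed for each library, and all 7 names were present. Of these, 6 had a value above 0 in at least 1 library, 4 had one in every library, and the same 4 passed the filter on low values that left 599 miRNAs for testing. The tissue was prefrontal cortex of 12-week-old mice on the C57BL/6 background, read by small RNA sequencing. There were 4 Fkbp5 knockout libraries (replicates 1, 2, 4 and 5) and 4 wild-type libraries (replicates 1, 2, 3 and 4). The labels name the knocked-out gene but not the allele, the cells in which it is missing or the sex of the mice. Whether each library is a separate animal is not stated, so p-values here speak of the spread between libraries, which may be technical.

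MicroRNAs are short RNAs that pair with messenger RNAs, mainly through the seed near their 5′ end, and lower the output of those messages. In striated muscle, transcription factors including SRF, MEF2 and, in skeletal muscle, MyoD drive transcription of the miR-1, miR-133 and miR-206 genes. miR-499 and the miR-208 pair are instead made from introns of myosin heavy chain genes and take part in the control of myosin and fibre type. In brain, miR-133b has been studied in midbrain dopamine neurons, and miR-206 as a regulator of the growth factor BDNF. Fkbp5 encodes a co-chaperone that lowers the hormone affinity of the glucocorticoid receptor. Small RNA libraries do not capture its message, and the genotype labels could not be checked.

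The members fall into groups by seed, and the sequences are shown because those groups decide which members could share targets. RefSeq mature sequences (GRCm38.p6) matched 5 of the 7 names, and miR-1a-3p and miR-133a-3p had no entry. Capitals mark the seed, bases 2 to 8 from the 5′ end.
miR-206-3p: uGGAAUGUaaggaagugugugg
miR-133b-3p: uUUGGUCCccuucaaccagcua
miR-499-5p: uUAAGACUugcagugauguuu
miR-208a-3p: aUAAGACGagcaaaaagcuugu
miR-208b-3p: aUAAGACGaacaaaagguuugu
miR-208a-3p and miR-208b-3p had the same seed and differed at 3 of 22 positions, G10A, A16G and C18U, counted from the 5′ end with the miR-208a-3p base first. miR-499-5p had 6 of 7 seed bases in common with both of them. Among these 5, the seeds of miR-206-3p and miR-133b-3p matched none of the other 4. Their closest members had no entry and could not be compared here: miR-1a-3p, which shares the miR-206-3p seed, and miR-133a-3p, nearly identical to miR-133b-3p. Among the 1679 mature names in that table, only miR-6349 and miR-6382 carried the miR-206-3p seed, and both were listed at 0 in every library here.

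The genes lie at separate loci (GRCm38 positions from the GENCODE annotation). Mir206, at chr1:20679010-20679082, and Mir133b, at chr1:20682769-20682887, stand 3686 bases apart on the plus strand. Both overlap exons of the long noncoding RNA gene Gm28653. Mir499, at chr2:155622880-155622958, lies in an intron of Myh7b. Mir208a, at chr14:54949060-54949142, lies in an intron of Myh6, and Mir208b, at chr14:54975700-54975776, in an intron of Myh7. The last 3 hosts encode myosin heavy chains, Myh6 and Myh7 being those of cardiac and slow skeletal fibres. miR-1a-3p and miR-133a-3p each come from a pair of loci. Mir1a-1, at chr2:180389048-180389124, and Mir133a-2, at chr2:180398379-180398482, are 9254 bases apart outside any annotated gene, and the other copies, Mir1a-2 and Mir133a-1, lie on chromosome 18. A mature name does not say which copy its reads came from.

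The values are those the authors call normalized counts, rescaled here between libraries to a common level, and are given as rescaled values unless they are called deposited values. Deposited totals per library, in units of 1000000, were 17.7 to 19.8 in the knockout and 16.2 to 21.6 in wild type. Log2 levels of the 599 miRNAs correlated at 0.984 to 0.994 between any pair of libraries, across miRNAs, which are not independent replicates. The labelled tissue was checked against neuronal miRNAs, which cannot tell prefrontal cortex from other brain regions. Of these, miR-128-3p was at 4441390 ± 664741 in the knockout and 4525560 ± 771037 in wild type (SD, n = 4 each), the highest level of all names. In bulk tissue, fewer cells of a type and less RNA per cell cannot be told apart.

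Cortex held the members at levels that fell into steps. miR-1a-3p was by far the most abundant, with a mean over 8 libraries of 14673, followed by miR-133a-3p at 632.3, miR-206-3p at 136.2 and miR-499-5p at 75.9. By mean log2 level these stood at places 56, 243, 349 and 390 of the 599 miRNAs tested. Below the filter were miR-133b-3p, at a mean of 1.81, miR-208b-3p, at 0.118, and miR-208a-3p, listed at 0 throughout. The lowest miR-1a-3p library (12743) was above the highest miR-133a-3p library (794), the lowest miR-133a-3p library (566.2) above the highest miR-206-3p library (257.7), and the lowest miR-499-5p library (65.4) above the highest miR-133b-3p library (4.89). miR-206-3p and miR-499-5p overlapped, and miR-206-3p was the higher of them in 7 of 8 libraries. The ranges of miR-133b-3p, miR-208b-3p and miR-208a-3p also overlapped at 0.

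miRNAs typical of other organs served as a scale for these levels. Of 14 such names, for liver, gut, pancreas, epithelium, embryo, gonad and hindbrain, 1 was listed at 0 throughout and 8 passed the filter. The most abundant were miR-194-5p of gut and liver, at 2657 ± 129 in the knockout and 2693 ± 274 in wild type, miR-122-5p of liver, at 404 ± 62.2 in the knockout and 384 ± 36.6 in wild type, and miR-375-3p of endocrine cells, at 354 ± 67.2 in the knockout and 345 ± 32.6 in wild type. miR-1a-3p stood above all 14, miR-133a-3p between miR-194-5p and miR-122-5p, and miR-206-3p and miR-499-5p below miR-375-3p. Of those 8 tested, 4 had a higher and 4 a lower mean log2 level in the knockout (median log2 fold change -0.0041), and 0 passed a limma adjusted p of 0.05. The 1 with an unadjusted p under 0.05 was miR-10b-5p of hindbrain and spinal cord, named after its values were seen, at 130 ± 87.4 in the knockout and 239 ± 66.4 in wild type (log2 fold change -1.01 ± 0.36, limma unadjusted p = 0.0154, adjusted p = 0.845).

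**Figure D1:**
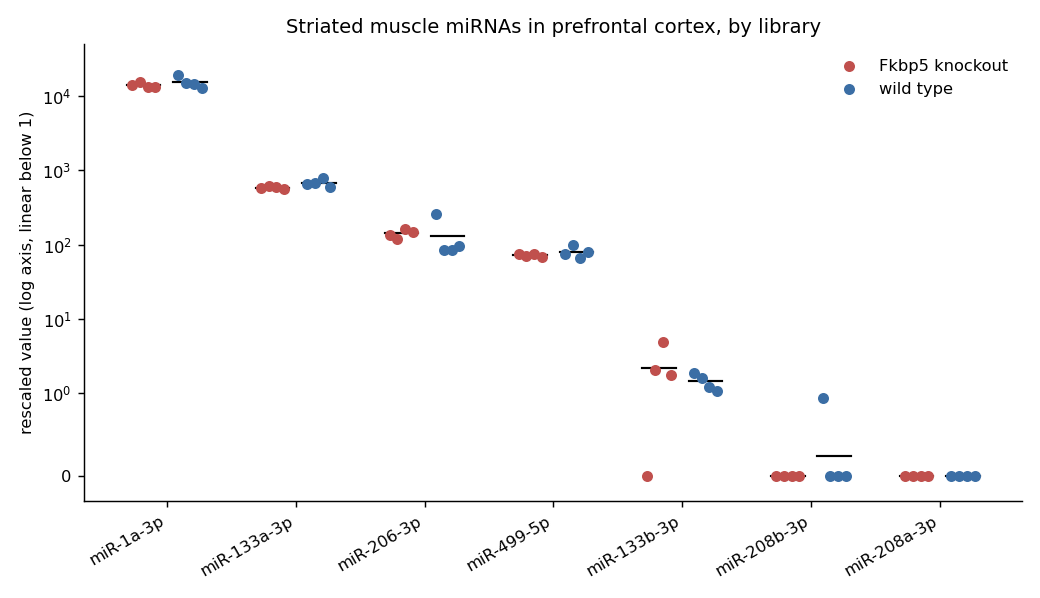
Rescaled values of the 7 striated muscle miRNAs in each library, on a log axis that is linear below 1, with Fkbp5 knockout libraries in red to the left and wild-type libraries in blue to the right (n = 4 each); points are libraries and bars are group means. miR-1a-3p, miR-133a-3p, miR-206-3p and miR-499-5p were above 0 in all 8 libraries, and 1 wild-type library of miR-206-3p sits at 257.7, above the other 7.

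miR-1a-3p, which promotes differentiation of muscle precursors, was at 13944, 15554, 13315 and 13116 in knockout replicates 1, 2, 4 and 5, and at 19283, 15109, 14318 and 12743 in wild-type replicates 1, 2, 3 and 4. Wild-type replicate 1 held the highest value and wild-type replicate 4 the lowest, so the knockout libraries all lay inside the wild-type range. The means were 13982 ± 1106 in the knockout and 15363 ± 2792 in wild type (SD, n = 4 each). By limma the log2 fold change of knockout over wild type was -0.12 ± 0.13 (SE), with a 95% interval from -0.41 to 0.16 and a Benjamini-Hochberg adjusted p of 0.99989. Without wild-type replicate 1 it was -0.02 and without wild-type replicate 4 it was -0.20. The two-sided exact permutation p over 70 arrangements of the libraries was 0.514, where the smallest possible is 0.0286.

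miR-133a-3p, whose genes pair with those of miR-1a and which favours proliferation of myoblasts, was at 573.3, 607.7, 596.0 and 566.2 in knockout replicates 1, 2, 4 and 5, and at 645.7, 679.7, 794 and 596.2 in wild-type replicates 1, 2, 3 and 4. The knockout libraries were tightly grouped at the low end, and the groups overlapped through wild-type replicate 4 and knockout replicate 2. The means were 585.8 ± 19.4 in the knockout and 678.9 ± 84.0 in wild type. Its log2 fold change was -0.21 ± 0.12 (SE; 95% interval -0.47 to 0.06), with an unadjusted p of 0.123 and 0.99989 after adjustment in limma, and an exact permutation p of 0.0571. Neither test passed the threshold, and the 95% interval included 0. A difference between the genotypes was therefore not established, and its absence was not shown either. Without wild-type replicate 3, the highest library, the log2 fold change was -0.13 ± 0.12 (limma adjusted p = 0.909), nearer to 0 by more than 1.5 times.

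miR-206-3p, which is typical of skeletal rather than cardiac muscle, was the 1 tested member with a higher mean in the knockout. It was at 133.9, 119.5, 164.1 and 148.5 in knockout replicates 1, 2, 4 and 5, and at 257.7, 84.6, 85.9 and 95.0 in wild-type replicates 1, 2, 3 and 4. The knockout libraries lay together, above wild-type replicates 2, 3 and 4 and below wild-type replicate 1. The means were 141.5 ± 19.2 in the knockout and 130.8 ± 84.7 in wild type (SD, n = 4 each), and the log2 fold change was 0.28 ± 0.31 (SE; 95% interval -0.41 to 0.97; limma adjusted p = 0.99989; exact permutation p = 0.571). Wild-type replicate 1 decided that value. Without it, limma gave 0.65 ± 0.16 with an unadjusted p of 0.00212 and an adjusted p of 0.948. In that setting 28 of 609 miRNAs had a limma unadjusted p under 0.05. Every knockout library was then above every remaining wild-type library, because the 1 library above them was the one left out. Wild-type replicate 1 was singled out after its value was seen, and the share of all miRNAs without overlap in that setting was not computed. Without wild-type replicate 2 the log2 fold change was 0.15 and without replicate 3 it was 0.14, both closer to 0 by over 1.5 times. Over all 8 libraries the 95% interval included 0.

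miR-499-5p, made from the Myh7b intron, was at 75.5, 71.1, 74.3 and 69.0 in knockout replicates 1, 2, 4 and 5, and at 75.5, 97.4, 65.4 and 78.8 in wild-type replicates 1, 2, 3 and 4. All knockout libraries lay within the wild-type range, whose top was wild-type replicate 2. The means were 72.5 ± 2.96 in the knockout and 79.3 ± 13.4 in wild type, and the log2 fold change was -0.11 ± 0.17 (SE; 95% interval -0.48 to 0.25; limma adjusted p = 0.99989; exact permutation p = 0.457). Without wild-type replicate 2 its sign turned, to 0.0067 ± 0.17 (limma adjusted p = 0.999).

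Thus 0 of the 4 tested members passed a limma adjusted p of 0.05, 0 had an unadjusted p under 0.05, and in 0 did the groups fail to overlap. Over all 599 miRNAs tested the corresponding shares were 0%, 4.34% (26 miRNAs, of which 1.34% of all tested were higher and 3.01% lower in the knockout) and 1.84% (11 miRNAs). Of the 4 members 1 had a higher and 3 a lower mean log2 level in the knockout. Their median log2 fold change was -0.12, beside a median of 0.01 over all 599. No count model was run, since the values are labelled as normalized.

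**Figure D2:**
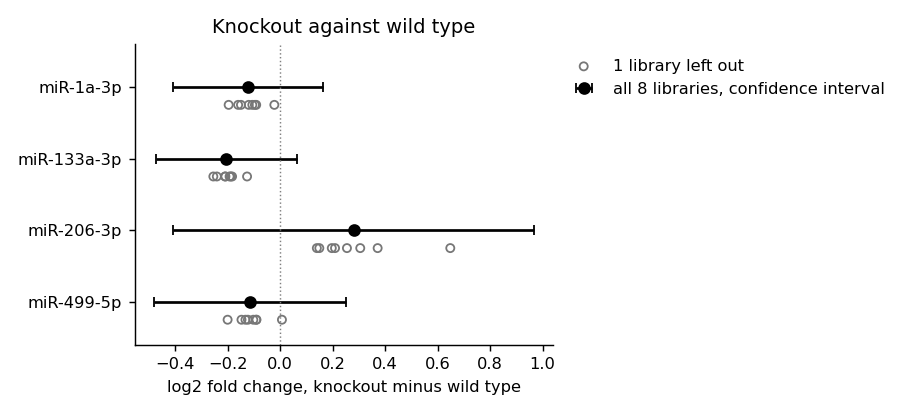
Log2 fold change of Fkbp5 knockout over wild type for the 4 tested members; filled points and bars are the limma estimate and 95% interval over all 8 libraries, and open points are the estimates with 1 library left out in turn. All 4 intervals cross 0, and the open point of miR-206-3p at 0.65 is the estimate without wild-type replicate 1.

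The low members gave little to compare. miR-133b-3p had deposited values of 0, 2, 5 and 2 in knockout replicates 1, 2, 4 and 5, and of 2, 2, 1 and 1 in wild-type replicates 1, 2, 3 and 4. It is nearly identical in sequence to miR-133a-3p, and how the authors' counting divided reads between such names is not given in the sources used here. Its value was 0% to 0.820% of that of miR-133a-3p in the knockout libraries and 0.152% to 0.292% in the wild-type libraries. Beside miR-206-3p, which lies in the same long noncoding RNA gene, it stood at 0% to 2.98% in the knockout and 0.733% to 1.90% in wild type. So the neighbouring hairpins Mir206 and Mir133b were listed at very unequal mature levels in every library, and a misassigned part of the miR-133 reads was not tested. miR-208b-3p had a deposited value of 1 in wild-type replicate 1 and 0 in the other 7 libraries. miR-208a-3p, from the main myosin gene of the adult mouse heart, was listed at 0 in all 8.

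The arms of the hairpins were very unequal for miR-1a, miR-133a, miR-206 and miR-499. For miR-133b and the miR-208 pair the arm among the members was itself at or near 0, so their arms could not be compared. Of the 8 names of the opposite arms, 7 were listed at 0 in every library, among them both 5p names of miR-1a, whose 3p arm was the most abundant member. miR-133a-5p was the exception, with deposited values of 0, 6, 4 and 4 in knockout replicates 1, 2, 4 and 5, and of 8, 10, 6 and 10 in wild-type replicates 1, 2, 3 and 4. The groups meet at a deposited value of 6, while after rescaling the knockout (0 to 6.18) lay below wild type (7.26 to 10.8). It did not pass the filter on low values and was not tested. Among the 599 miRNAs tested, the groups did not overlap in 1.84%, and no such share was computed for names below the filter. As a share of miR-133a-3p it was 0.572 ± 0.422% in the knockout and 1.27 ± 0.382% in wild type (SD, n = 4 each).

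Near copies of the members were scarce as well. miR-1b-5p had deposited values of 3, 4, 7 and 16 in knockout replicates 1, 2, 4 and 5, and of 16, 9, 4 and 12 in wild-type replicates 1, 2, 3 and 4, with wide overlap. Its gene overlaps Mir1a-2 on the opposite strand, and whether the counting used strand is not given in the sources used here, so its reads and those of its antisense partner cannot be told apart. miR-1b-3p had deposited values from 1 to 2 in the knockout and from 0 to 1 in wild type, and miR-133c was listed at 0 throughout.

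Within each library the makeup of the group was nearly fixed by miR-1a-3p. It held 94.1% to 95.1% of the members' summed value in the knockout libraries and 93.8% to 95.2% in the wild-type libraries. The sum itself was 793 ± 65.9 per 1000000 of the library total in the knockout and 856.9 ± 125 in wild type (SD, n = 4 each). The ratio of miR-1a-3p to miR-133a-3p, whose genes are paired at both loci, was 22.3 to 25.6 in the knockout and 18.0 to 29.9 in wild type. miR-206-3p was 0.768% to 1.23% of miR-1a-3p in the knockout and 0.56% to 1.34% in wild type, the top value being that of wild-type replicate 1.

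None of the 4 pairs of members compared had a correlation that passed after adjustment. Over the 8 libraries, miR-1a-3p and miR-133a-3p had a Pearson r of 0.30 (exact permutation p = 0.434, adjusted over 4 pairs 0.693) and a Spearman rho of 0.62 (exact permutation p = 0.115, adjusted 0.432). Leaving out the 2 libraries farthest from the median of miR-1a-3p gave an r of 0.39, leaving out wild-type replicate 3 gave 0.63 (exact permutation p = 0.129, adjusted 0.417), and the values as deposited, which keep differences in library total, gave 0.72 (exact permutation p = 0.0438, adjusted 0.151). miR-206-3p and the very low miR-133b-3p had an r of 0.28 (exact p = 0.520, adjusted 0.693) and a rho of 0.50 (exact p = 0.216, adjusted 0.432), with an r of 0.37 after the same step. For miR-1a-3p and miR-206-3p, which share a seed, r was 0.52 (exact p = 0.189, adjusted 0.693) and rho 0.05 (exact p = 0.935, adjusted 1.0). That relation rested on wild-type replicate 1: r was -0.36 without it, and -0.68 without it and wild-type replicate 4. miR-133a-3p and miR-133b-3p had an r of 0.03 (exact p = 0.937, adjusted 0.937) and a rho of 0.0 (exact p = 1.0, adjusted 1.0), and an r of 0.34 without the 2 farthest libraries.

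**Figure D3:**
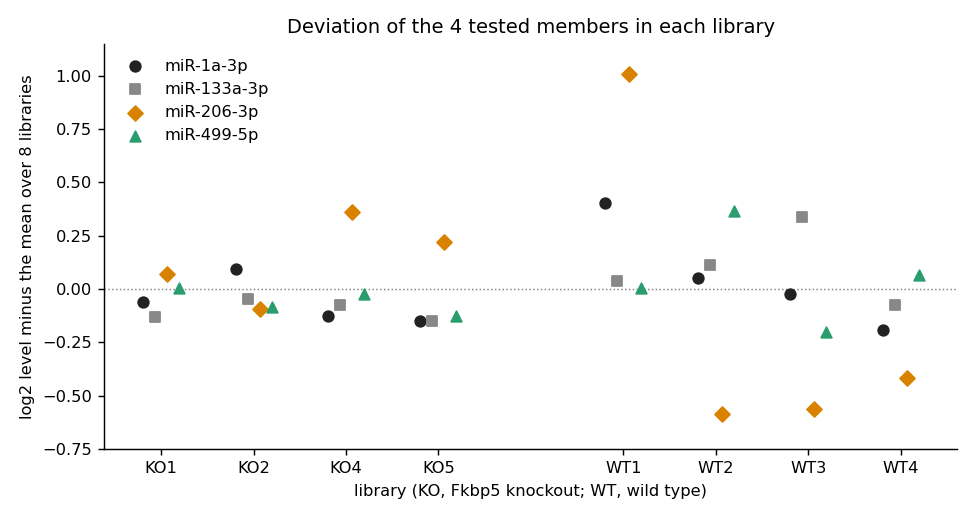
Deviation of each tested member from its own mean over the 8 libraries, in log2 units, with the 4 Fkbp5 knockout libraries to the left and the 4 wild-type libraries to the right; symbols are miRNAs. miR-206-3p is 1.01 above its mean in wild-type replicate 1 and 0.42 to 0.59 below it in the other 3 wild-type libraries, and miR-1a-3p, miR-133a-3p and miR-499-5p are highest in wild-type replicates 1, 3 and 2.

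Each abundant member had its highest level in a wild-type library, but not in the same one. Wild-type replicate 1 was highest for miR-1a-3p (0.41 above its mean in log2 units) and miR-206-3p (1.01 above), wild-type replicate 3 for miR-133a-3p (0.34 above) and wild-type replicate 2 for miR-499-5p (0.37 above). All 4 had a wider spread of log2 values in wild type. The SD was 0.11 in the knockout and 0.25 in wild type for miR-1a-3p, and 0.05 in the knockout and 0.17 in wild type for miR-133a-3p. It was 0.20 in the knockout and 0.77 in wild type for miR-206-3p, and 0.06 in the knockout and 0.24 in wild type for miR-499-5p. For miR-206-3p this rested on wild-type replicate 1, without which the wild-type SD was 0.09, below that of the knockout. The other 3 stayed wider in wild type with any 1 library left out. A wider spread in wild type was common, found in 418 of all 599 miRNAs tested (69.8%), whose median SD was 0.20 in the knockout and 0.27 in wild type.

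Set against other miRNAs, miR-206-3p had the widest spread of the 4, through 1 library. Its residual SD within genotypes was 0.56 in log2 units, place 59 from the widest of 599, where the trend over all miRNAs gave 0.26 at its level. Without wild-type replicate 1 it was 0.16, at place 435 of 609 and below the trend value of 0.24. miR-1a-3p (0.19, trend 0.17) was close to the trend at place 409. miR-133a-3p (0.13, trend 0.21) and miR-499-5p (0.17, trend 0.29) were below it, at places 549 and 471.

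**Figure D4:**
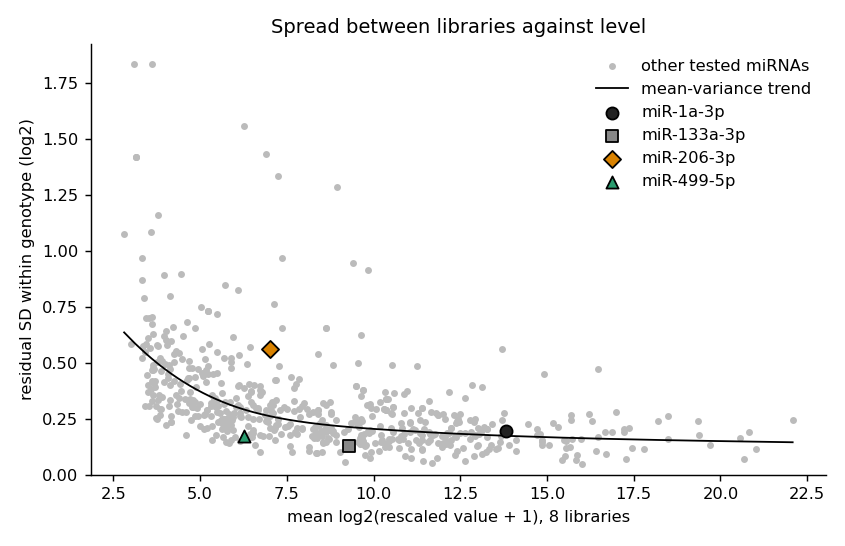
Residual SD of log2 values within genotypes against mean log2 level over 8 libraries for the 599 miRNAs tested; grey points are other miRNAs, the line is limma's mean-variance trend and large symbols are the 4 tested members. miR-206-3p, at 0.56, lies above the trend value of 0.26 (0.16 without wild-type replicate 1), and miR-133a-3p and miR-499-5p lie below the trend.

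Markers of other tissues were compared in wild-type replicate 1, where miR-206-3p was high, and none of the 5 lists had its highest wild-type sum there. In summed rescaled values, 4 smooth muscle miRNAs were at 60292 in that library and at 60345 to 76475 in the other 3 wild-type libraries. The 2 endothelial miRNAs were at 17758 (others 19266 to 23450), 5 mesenchymal miRNAs at 5542 (others 5317 to 6231) and 3 red blood cell miRNAs at 516.4 (others 659.6 to 780.9). The 8 olfactory and epithelial miRNAs were at 2886 (others 1725 to 5951). The 9 miR-486 and miR-378 products, abundant in muscle but made in many tissues, were at 15140 (others 12530 to 16116). That sum counts miR-486a-5p and miR-486b-5p separately, although their values were the same in every library. It therefore does not rank the libraries for this list. The single names went both ways there. Highest of the wild-type libraries in replicate 1 were miR-378a-3p at 8850 (others 4725 to 6187), miR-378c (374.8), miR-378d (154.8), miR-486a-3p (73.6) and miR-486b-3p (80.2). Lowest there were miR-378a-5p (20.8) and miR-486a-5p at 2781 (others 2911 to 4652), whose values miR-486b-5p repeats. miR-378b (23.6) lay in between. The part of any of these lists in the miR-206-3p value was not tested.

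Those marker lists of other tissues, by genotype, had no member past a limma adjusted p of 0.05. Smooth muscle sums ran from 39392 to 67336 in the knockout and from 60292 to 76475 in wild type. In mean log2 level 3 of 4 miRNAs were lower, among them miR-143-3p (log2 fold change -0.42 ± 0.16, limma unadjusted p = 0.0212, adjusted p = 0.845). The smooth muscle sums were mostly miR-143-3p, at a mean over all libraries of 53786, beside 2050 for miR-145a-5p, the next. Endothelial sums ran from 17071 to 19945 in the knockout and from 17758 to 23450 in wild type, and mesenchymal sums from 3779 to 5722 in the knockout and from 5317 to 6231 in wild type. The mesenchymal sums were mostly miR-199a-3p, at a mean over all libraries of 4934, beside 102 for miR-199a-5p, the next. miR-199a-3p had a log2 fold change of -0.42 ± 0.14 (limma unadjusted p = 0.0114, adjusted p = 0.845). Over all 599 miRNAs tested, 4.34% had a limma unadjusted p under 0.05. Red blood cell sums ran from 513 to 714.7 and olfactory and epithelial sums from 958.9 to 5970 in the knockout, against 516.4 to 780.9 and 1725 to 5951 in wild type. Median log2 fold changes were -0.16, -0.10, -0.42, -0.24 and -0.97 for smooth muscle, endothelium, mesenchyme, red blood cells and the olfactory and epithelial list. In that last list the SEs of the tested miRNAs ran from 0.48 (miR-183-5p) to 0.81 (miR-429-3p). The 5 neuronal miRNAs had a median of 0.05 and sums from 6470140 to 8285490 in the knockout and from 6166120 to 8126320 in wild type.

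Other miRNAs that are abundant in muscle but made in many tissues were led by names below miR-1a-3p and above miR-133a-3p. Of 9 such names, the miR-486 and miR-378 products, 9 were tested, 7 had a higher and 2 a lower mean log2 level in the knockout, and 0 passed a limma adjusted p of 0.05 (median log2 fold change 0.09, against 0.01 over all tested). The most abundant was miR-378a-3p, at 6515 ± 1519 in the knockout and 6478 ± 1722 in wild type. miR-486a-5p, prominent in muscle and red blood cells, was at 4076 ± 457 in the knockout and 3498 ± 859 in wild type. miR-486b-5p had the same values in every library and is not a separate result, although the counts and the median of this list include it.

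The miRNAs whose library pattern was most like that of miR-206-3p, by Pearson r of log2 levels over 8 libraries among the other 595 tested miRNAs, were miR-379-5p (0.95), miR-6929-3p (0.92) and miR-540-3p (0.92). All 3 had their highest value in wild-type replicate 1, for example miR-379-5p at 35545 there, beside 28804 to 31451 in the knockout and 26393 to 29256 in the other wild-type libraries. For miR-1a-3p they were miR-100-5p (0.91), miR-204-5p (0.91) and miR-488-5p (0.91), and for miR-133a-3p they were miR-3074-5p (0.92), miR-26b-5p (0.86) and miR-351-5p (0.81). These values describe likeness only, picked as the highest of many.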

How the data were processed

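Small RNA from prefrontal cortex was sequenced in 8 libraries. The submitters' processing notes list cutadapt 1.11, then Bowtie 1.1.2, HTSeq 0.6.1p1, edgeR and the mm10 build, without roles or settings. Per the file headers, the authors deposited normalized counts, here treated as a score of unstated normalization and not as raw counts, although all are whole numbers. Depth is therefore unknown and no counting intervals are given.

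Library factors were trimmed means of log ratios over the tested miRNAs, with 30% of ratios and 5% of levels trimmed at each end. A miRNA was tested if its value, put on the scale of the median library, was at least 10 in 4 or more libraries, and its total at least 15. log2(rescaled value + 1) was compared with limma 3.58.1 in R 4.3.3, with variances moderated along a trend on level and p-values adjusted over all 599 miRNAs by Benjamini-Hochberg at 0.05. Fold changes are on that scale, which understates change in low miRNAs. The procedure was tested on simulated data. Permutations and correlations used scipy 1.17.1.

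The members, lists of marker miRNAs and settings were chosen with earlier results of these data known. The miRNAs named were the 7 members, their other arms and near copies, up to 3 abundant miRNAs of each list, and the 3 most alike in pattern. Other scalings, pseudocounts, filters, no trend, a replicate block and omission of each library were tried.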

Additional observations from a re-analysis of the deposited data

Results flagged for a closer look

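Of 29 groups of 4 libraries examined for the members, their other arms, near copies and the miR-486 and miR-378 products, 2 had 1 library set apart by a gap; about 1 in 20 groups, or 1.45, would by chance. miR-206-3p was at 257.7 in wild-type replicate 1, against 84.6 to 95.0 in the other 3 wild-type libraries. miR-378a-3p was at 8779 in knockout replicate 2, against 5626 to 5999 in the other 3 knockout libraries. Some of the examined groups repeat each other, since miR-486a-5p and miR-486b-5p have the same values.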

How the results depend on the processing

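Of 74 alternative log2 fold changes for miR-1a-3p, miR-133a-3p, miR-206-3p and miR-499-5p, 73 kept their direction, 1 turned and 0 passed a limma adjusted p of 0.05. With 1 library left out, miR-1a-3p ran from -0.20 to -0.02, miR-133a-3p from -0.25 to -0.13, miR-206-3p from 0.14 to 0.65 and miR-499-5p from -0.20 to 0.0067, the last without wild-type replicate 2. Under the other settings they ran from -0.13 to -0.06, -0.21 to -0.11, 0.11 to 0.34 and -0.18 to -0.05. miR-206-3p and miR-499-5p did not reach a filter of 10 per 1000000. miR-133b-3p, miR-208a-3p and miR-208b-3p were given no fold change under any setting, being at or near 0. The 26 miRNAs with an unadjusted p under 0.05 became 9 without rescaling (the cause was not tested), 50 without a filter and 15 at 10 per 1000000, where the number tested differed, and 17 to 37 with 1 library left out (17 without knockout replicate 4). Across settings the median of all miRNAs ran from -0.02 to 0.07.

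With 1 library left out, the correlation of miR-1a-3p with miR-206-3p ran from -0.36 (without wild-type replicate 1) to 0.64. That of miR-133a-3p with miR-133b-3p ran from -0.38 (without knockout replicate 1) to 0.23, and was -0.0048 without wild-type replicate 4. miR-1a-3p with miR-133a-3p ran from 0.20 to 0.63, and miR-206-3p with miR-133b-3p from 0.13 (without knockout replicate 4) to 0.49 (without knockout replicate 1). In an alternative chosen after seeing the data, the SD of miR-206-3p in wild type minus that in the knockout ran from -0.11 (without wild-type replicate 1) to 0.72 with 1 library left out. As deposited or scaled to library totals, 0 correlations passed after adjustment.

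The replicate numbers 1, 2 and 4 occur in both genotypes, but same-numbered libraries correlated at only 0.07, -0.04 and 0.13 in their deviations, and 0 of the 3 correlated best with their own number. A replicate block on these 6 libraries gave 3 miRNAs past the threshold and 44 unadjusted, against 0 and 40 in the same libraries without the block. None of the 3 was a member; miR-206-3p was at 0.11 with and without the block in these 6. Values near 0 limit what can be said of miR-133b-3p and the miR-208 pair.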
